A study of Mus musculus with 4 samples.

Results

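Wnt3, Wnt3a, Wnt4, Wnt6, Wnt7a, Wnt7b, Wnt10a, Wnt10b and Wnt16 are the 9 Wnt ligand genes that were followed here through the cells of the developing mouse molar. They were found by symbol in the deposited gene lists, where all 9 are present among 32285 genes, beside 10 other Wnt ligand genes that were not members. The members were named for expression in epithelium. As they were chosen with earlier results of these data known, the counts describe where they lay and are no independent check of that name.

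The study profiled Wnt pathway genes during tooth morphogenesis by single-cell RNA sequencing of molar tooth organs. It holds 4 libraries, 1 for each jaw (maxillary or mandibular) of E15.5 embryos, near the change from cap to bell shape, and of P1 pups, when enamel and dentin are laid down. All animals were wild type on the C57BL/6J background (labelled WTB6), and 6 tooth organs were pooled in each library. The embryos are called E15 in the sample titles and E15.5 in the protocol, and the pups P1 in the titles and P0/P1 in the protocol. As each stage and jaw is 1 library of pooled organs, no group had a replicate, and differences between stages or jaws were not tested. Intervals given below are exact 95% intervals for counting error only, Poisson (Garwood) for levels and binomial (Clopper-Pearson) for shares and ratios, and say nothing of differences between animals.

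The deposited matrices held 109723360 unique molecular identifiers (UMIs, each marking 1 captured RNA molecule) in the E15.5 maxillary library, 86659227 in the E15.5 mandibular, 128812956 in the P1 maxillary and 139873101 in the P1 mandibular library. After filtering, 8395, 6059, 13760 and 8158 cells were kept in that order, and the median cell had 9887, 11595, 3950.5 and 11016 UMIs. Epithelium-like cells numbered 703, 95, 2112 and 1495, so the E15.5 mandibular epithelium is the thinnest sample, and mesenchyme-like cells numbered 4969, 2746, 7720 and 4558. A level is given as CPM, the UMIs of a gene per 1000000 UMIs of all cells in a class, and compares a gene across cells, not different genes with each other, because the 3′ assay captures genes with unequal efficiency.

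Wnt ligands are secreted, lipid-modified glycoproteins. They are acylated by Porcupine (Porcn), carried to the cell surface by Wntless (Wls), and inactivated outside the cell by the deacylase Notum. They bind Frizzled receptors with the co-receptors Lrp5 and Lrp6, which can stabilise beta-catenin and raise response genes such as Axin2, Lef1 and Nkd1, or act through beta-catenin-independent routes. In the tooth, Wnt signals from the oral and dental epithelium act on the mesenchyme at initiation, and mutations of the human WNT10A gene cause missing teeth. Enamel is made by ameloblasts, which arise from the inner enamel epithelium (IEE), whereas dentin is made by odontoblasts, which arise from the dental papilla. The enamel knot (EK) is a transient signaling centre at the cusp tip. The outer enamel epithelium (OEE), the stellate reticulum and the stratum intermedium (SR/SI) make up the rest of the enamel organ.

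A limit of the P1 libraries bears on all that follows. The maxillary and the mandibular P1 library shared 7131 barcodes, 38.1% of the maxillary and 36.8% of the mandibular ones, whereas any other pair of libraries shared between 28 and 70. With a median depth of 12088 UMIs in one and 2870 in the other, the maxillary copy of a shared barcode was deeper by a median factor of 4.21. The log2 depth ratio varied little between these barcodes, from 2.0025 (5th percentile) to 2.185 (95th percentile). For the 28 barcodes shared by the E15.5 libraries it ran from -3.587 to 3.721. Whether both copies come from the same captured cells was not tested, so likeness between the P1 libraries cannot be read as a repeat in a separate sample. The barcodes shared by the P1 libraries were kept in the maxillary library and dropped from the mandibular one. Of the P1 maxillary cells kept, 5825 (42.3%) carry such a barcode, among them 147 of the 148 ameloblast-like cells, 348 of the 355 odontoblast-like cells and 1120 of the 2112 epithelium-like cells. In the epithelium-like cells these barcodes hold 97.8% of the Wnt6 UMIs, 96.3% of the Wnt10a UMIs and 98.5% of the Wnt3a UMIs of the library. From the counts alone, the jaw of origin of these cells cannot be told apart, so that values labelled P1 maxillary are those of the library with that label.

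On the mm10 assembly, the positions of the 9 genes put some members side by side. Wnt6 lies at chr1:74771892-74785322 and Wnt10a at chr1:74791516-74804179, on the plus strand with 6193 bases between them. Wnt3a (chr11:59248033-59290752) lies 16175 bases from Wnt9a, Wnt3 (chr11:103774150-103817957) 24328 bases from Wnt9b and Wnt10b (chr15:98770712-98778150) 11706 bases from Wnt1, each pair on opposite strands. Wnt4 lies at chr4:137277489-137299726, Wnt7a at chr6:91363981-91411363, Wnt7b at chr15:85535437-85582473 and Wnt16 at chr6:22288227-22298522. An exon of Wnt7b overlaps the antisense gene AU022754, while the antisense gene Gm29539 overlaps Wnt6 outside the exons of Wnt6.

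The windows of 250 bases before the start of Wnt6, Wnt10b and Wnt16 are shown because these genes were high in different cells, in ameloblast- and odontoblast-like cells, in the enamel knot and inner enamel epithelium, and in mesenchyme and oral epithelium. They are from RefSeq on GRCm38.p6, which is the mm10 build, and capitals mark the GC box GGGCGG or its complement CCGCCC. Wnt6 is at chr1:74771642-74771891 (plus strand), Wnt10b at chr15:98778151-98778400 (minus strand) and Wnt16 at chr6:22287977-22288226 (plus strand).
Wnt6: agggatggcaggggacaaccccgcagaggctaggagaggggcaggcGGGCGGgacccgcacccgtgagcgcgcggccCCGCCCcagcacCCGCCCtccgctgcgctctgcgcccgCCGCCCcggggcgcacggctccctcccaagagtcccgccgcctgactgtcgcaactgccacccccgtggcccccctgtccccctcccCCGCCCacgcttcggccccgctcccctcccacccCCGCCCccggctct
Wnt10b: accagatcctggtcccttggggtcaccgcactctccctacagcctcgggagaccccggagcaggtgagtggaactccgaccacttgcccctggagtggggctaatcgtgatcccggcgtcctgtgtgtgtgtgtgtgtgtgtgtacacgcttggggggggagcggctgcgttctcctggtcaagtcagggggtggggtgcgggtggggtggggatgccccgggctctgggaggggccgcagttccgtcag
Wnt16: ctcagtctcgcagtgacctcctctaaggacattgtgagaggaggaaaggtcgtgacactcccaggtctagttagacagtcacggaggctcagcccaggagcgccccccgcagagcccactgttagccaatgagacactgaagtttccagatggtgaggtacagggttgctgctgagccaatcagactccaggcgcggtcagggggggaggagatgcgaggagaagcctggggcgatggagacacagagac
The GC box was found 6 times before Wnt6 and 0 times before Wnt10b and Wnt16. GC content was 79.6%, 66.8% and 59.2%, against a median of 52.4% over 32851 windows of the same table. Of the 9 members, 7 were in that table, Wnt7b and Wnt10a not being matched, and the GC box stood 9 times before Wnt3a, 8 before Wnt4, 6 before Wnt7a and 2 before Wnt3. On either strand GGGCGG is in 32.7% of all windows, the Tcf/Lef motif as CTTTGAT in 3.21% and as CTTTGTT in 5.03%, and the TATA motif TATAAA in 12.4%. None of the 7 windows held either Tcf/Lef motif or the TATA motif, which says only that these letters are not in these windows.

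Epithelium-like cells were told from mesenchyme-like cells by fixed marker lists, with all Wnt pathway genes left out of the clustering. The 12 epithelial markers, led by Krt5 and Krt14, summed to between 4716 and 6570 CPM in the epithelium-like cells of the 4 libraries and to between 16.2 and 53.9 CPM in mesenchyme-like cells. The 9 mesenchymal markers, led by Col1a1, Col1a2, Col3a1 and Dcn, summed to between 355 and 528 CPM in epithelium-like cells and to between 9994 and 18053 CPM in mesenchyme-like cells. The 8 immune markers summed to at most 30.9 CPM in either, while the 6 erythroid markers, led by the globin gene Hbb-bs, reached between 1890 and 10115 CPM in both. What part of the member UMIs in one compartment came from free RNA of the other was not tested.

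By level, 8 of the 9 members were higher in epithelium than in mesenchyme at P1, and Wnt16 was lower. Wnt3, Wnt3a and Wnt7a were nearly confined to epithelium, which held between 88.0% and 97.8% of the Wnt3 UMIs of the kept cells of a library, 96.4% to 98.5% of those of Wnt3a and 93.3% to 100% of those of Wnt7a. For Wnt16, a ligand that in other tissues is known from bone and skin, only 28.0%, 20.1%, 12.7% and 11.1% of the UMIs lay in epithelium in the E15.5 maxillary, E15.5 mandibular, P1 maxillary and P1 mandibular library, and 70.8%, 77.2%, 82.5% and 85.2% lay in mesenchyme. Such shares follow the numbers of cells, and by level Wnt16 was higher in epithelium at E15.5, at 26.9 against 14.9 CPM, within 2-fold, in the maxillary and at 21.2 against 4.86 CPM in the mandibular library. Wnt6 and Wnt10a were shared, with 53.0% and 67.1% of the Wnt6 UMIs and 40.4% and 56.8% of the Wnt10a UMIs in the P1 maxillary and mandibular epithelium. Odontoblast-like cells alone held 28.1% and 18.7% of the Wnt6 UMIs and 35.5% and 25.6% of the Wnt10a UMIs there. Classes outside both compartments held 17.9% and 31.3% of the E15.5 Wnt6 UMIs in the maxillary and mandibular library. Glia-like cells had 84.4 CPM (71.5 to 98.9) of Wnt6 in the former, above the 48.7 CPM of epithelium-like cells, and 57.6 CPM (46.8 to 70.2) beside 64.3 CPM in the latter.

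Relative to all UMIs, 7, 8, 8 and 8 members were at least 2-fold higher in epithelium-like than in mesenchyme-like cells in the same order of libraries, of 8, 8, 9 and 9 with at least 20 UMIs over the pair. With each cell thinned to 2000 UMIs, 4 members of the E15.5 mandibular library still had 20 UMIs, and all 4 (Wnt4, Wnt6, Wnt10a and Wnt16) were at least 2-fold higher in epithelium. Without thinning, 13.2%, 13.8%, 15% and 12.7% of all genes with at least 20 UMIs over the pair were at least 2-fold higher. The members' median log2 ratio was 4.28, 4.78, 4.15 and 3.19, against -0.07, 0.04, 0.01 and -0.05 over all genes. With members chosen in knowledge of earlier results of these data, these counts and medians are a description and no test of the list. Wnt16 was the member at least 2-fold lower at P1, where 20.4% and 22.6% of all genes were, at 2.98 against 6.03 CPM in the maxillary and 0.651 against 1.92 CPM in the mandibular library.

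Wnt3a showed a wide contrast in every library. Its epithelial level was 9.01 CPM (7.39 to 10.9) in the E15.5 maxillary, 14.3 (9.93 to 19.8) in the E15.5 mandibular, 66.6 (63.1 to 70.3) in the P1 maxillary and 78.7 (75.1 to 82.4) in the P1 mandibular library. In mesenchyme it stood at 0.0367 and 0.213 CPM in the maxillary and 0.417 CPM in the P1 mandibular library, and at 0 UMIs in the E15.5 mandibular library, where epithelium was at least 195-fold higher against a floor of 3 UMIs over the class. Wnt4, a ligand with roles in kidney, gonad and epithelia, had epithelial levels of 298, 274, 143 and 149 CPM against 8.86, 7.0, 15.98 and 16.35 CPM in mesenchyme in the order E15.5 maxillary, E15.5 mandibular, P1 maxillary and P1 mandibular. Wnt7b stood at 27.6, 27.7, 15.9 and 10.8 CPM against 0.697, 1.46, 0.381 and 0.450 CPM. Epithelium was higher in every library for these genes, by a larger factor for Wnt3a than for Wnt4 in each.

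Wnt10b was less one-sided, at 12.4, 8.55, 5.42 and 6.25 CPM in epithelium and 1.30, 2.60, 0.305 and 1.8 CPM in mesenchyme. In the E15.5 mandibular library, with its 95 epithelium-like cells, 81.7% of its UMIs were in mesenchyme although its CPM was higher in epithelium. In a mesenchymal E15.5 cluster led by the bone genes Ibsp and Ifitm5 it reached higher levels, with 41.2 CPM (18 UMIs in 20 cells) in the maxillary and 32.0 CPM (56 UMIs in 59 cells) in the mandibular library, of 71 and 107 mesenchymal Wnt10b UMIs in all. The cartilage genes Col2a1, Hapln1, Col9a1 and Col11a2 are also among the leading genes of this cluster. Wnt6 and Wnt10a had smaller contrasts at P1 than Wnt3a or Wnt4, the log2 ratio being 1.91 (1.85 to 1.97) and 1.13 (1.03 to 1.23) in the maxillary and 2.49 (2.43 to 2.54) and 1.81 (1.73 to 1.90) in the mandibular library.

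**Figure D1:**
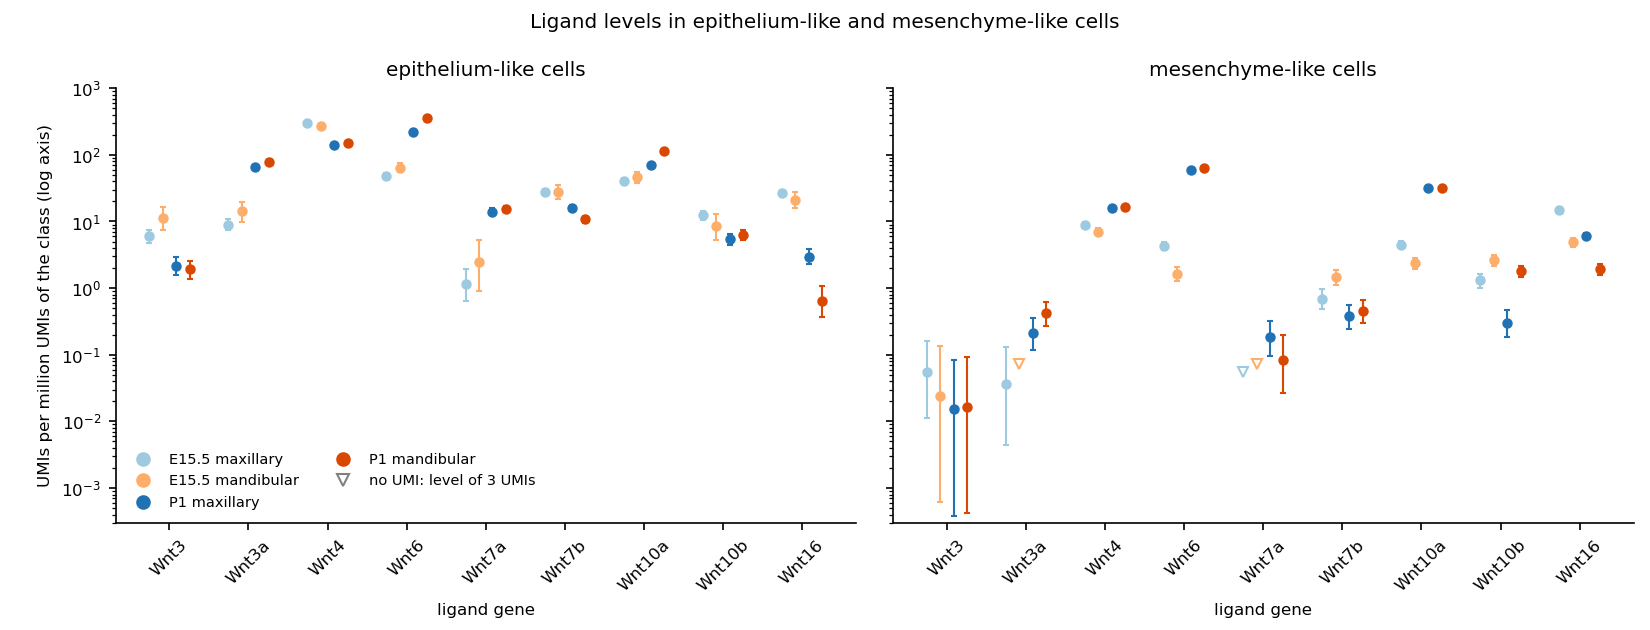
Level of each of the 9 ligand genes (CPM, log axis) in epithelium-like and mesenchyme-like cells of the 4 libraries, with exact Poisson 95% intervals for counting error; an open triangle marks the level of 3 UMIs where no UMI was counted. Epithelial points lie above mesenchymal ones for every gene but Wnt16, which is lower in epithelium at P1 (2.98 against 6.03 CPM and 0.651 against 1.92 CPM).

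Within the epithelium the ligands fell on different layers. Wnt4 and Wnt7b were highest in the oral epithelium and in the outer enamel epithelium, and low in the inner layers. For Wnt4 this place of the outer enamel epithelium held at P1 only. In E15.5 maxillary cells Wnt4 reached 734 CPM (695 to 774) in a suprabasal oral-like cluster led by Krt6a and Krt4 and 440 CPM (390 to 496) in basal oral-like cells. Unnamed clusters led by Pappa and Ly6a (335 CPM) and by Ube2c and Hist1h1b (306 CPM) came next, above the OEE-like cells of that library. At P1 it stood at 438 and 354 CPM in suprabasal oral-like cells of the maxillary and mandibular libraries and at 376 and 367 CPM in an OEE-like cluster led by Plcb1 and Nell1. IEE-like cells had 58.4 and 62.6 CPM. The intervals of the P1 suprabasal cells and the Plcb1-led cells overlap in both libraries (391 to 489 beside 342 to 412, and 315 to 397 beside 337 to 398), and the difference itself was not tested. The interval of the E15.5 Krt6a-led cells lies above each of them.

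Wnt7b had a similar order, with 75.3 and 42.0 CPM in P1 suprabasal oral-like cells, 51.8 and 48.3 CPM in Plcb1-led OEE-like cells and 51.7 CPM in E15.5 OEE-like cells. It was nearly absent from IEE-like cells, at 2.80 and 2.38 CPM (8 and 4 UMIs), and from ameloblast-like cells, at 0.481 and 1.50 CPM (1 and 9 UMIs).

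Wnt3a and Wnt7a lay in the enamel organ instead. Wnt3a peaked at P1 in a pair of dental clusters that were left unnamed, at 194 CPM (169 to 221) and 193 CPM (171 to 216) in the cluster led by Pcdh9 and Kcnq3 and at 160 and 181 CPM in the cluster led by Apba1 and Prr16. Of the marker lists, the Apba1-led cluster scored highest on inner enamel epithelium (0.224) and then on ameloblast (0.202). The Pcdh9-led cluster scored highest on enamel knot (0.269) and then on inner enamel epithelium (0.268). Shh stood at 761 and 725 CPM and Amelx at 321 and 411 CPM in the Pcdh9-led cluster. In the Apba1-led cluster Shh stood at 759 and 765 CPM and Amelx at 4701 and 7182 CPM, beside 16.4 and 178 CPM of Amelx in immune-like cells. Wnt3a stood at 155 CPM (133 to 179) and 172 CPM (146 to 203) in IEE-like cells led by Dab1. These intervals overlap those of both unnamed clusters in each library. Wnt3a was lower in ameloblast-like cells (97.1 and 96.7 CPM), with 45.7 and 28.7 CPM in OEE-like cells and 0 and 1 UMIs in suprabasal oral-like cells. Wnt7a stood at 24.1 and 24.4 CPM in IEE-like, 22.5 and 20.1 CPM in OEE-like and 8.65 and 10.8 CPM in ameloblast-like cells. The IEE-like and OEE-like intervals of Wnt7a overlap in each library (18.8 to 30.5 beside 17.5 to 28.5 CPM, and 17.5 to 33.1 beside 16.1 to 24.7 CPM).

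At P1 Wnt10b was highest in a single cluster. The Dab1-led IEE-like cells, which also had the highest levels of the inner enamel marker Vwde (2350 and 2340 CPM), held 47.4 CPM (35.9 to 61.4) in the maxillary and 121 CPM (99.0 to 147) in the mandibular library. Outside IEE-like cells the highest levels, both in the maxillary library, were 18.4 CPM in Plcb1-led OEE-like cells (22 UMIs) and 15.7 CPM in basal oral-like cells (15 UMIs), and ameloblast-like cells had 0 Wnt10b UMIs in either library. Wnt3, counted on few UMIs, was highest in E15.5 maxillary cells of a cluster led by Stfa3 and Stfa1 (35.5 CPM, 17 UMIs) and at P1 in the Pcdh9-led cluster (10.5 and 17.1 CPM, 12 and 26 UMIs).

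Epithelial Wnt16 was low in the layers of the enamel organ. At E15.5 it was highest in unnamed clusters led by Ctsk and Acp5 (94.4 CPM, 76.9 to 115) and by Ube2c and Hist1h1b (58.6 CPM), and at P1 in basal oral-like cells of the maxillary library (45.03 CPM, 32.6 to 60.7). The leading genes of the Ctsk-led cluster, among them Ctsk, Acp5, Mmp9 and Atp6v0d2, also lead the osteoclast-like class at E15.5. What part osteoclast-like cells have in its Wnt16 level was not tested. OEE-like, IEE-like, SR/SI-like and ameloblast-like cells of the P1 libraries held 5 Wnt16 UMIs together. In mesenchyme it was highest outside the papilla at P1, with 43.1, 36.2 and 34.7 CPM in maxillary clusters led by Cdh20 and Nrg3, by Dpt and Gdf10 and by Alx1 and Lrriq1.

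**Figure D2:**
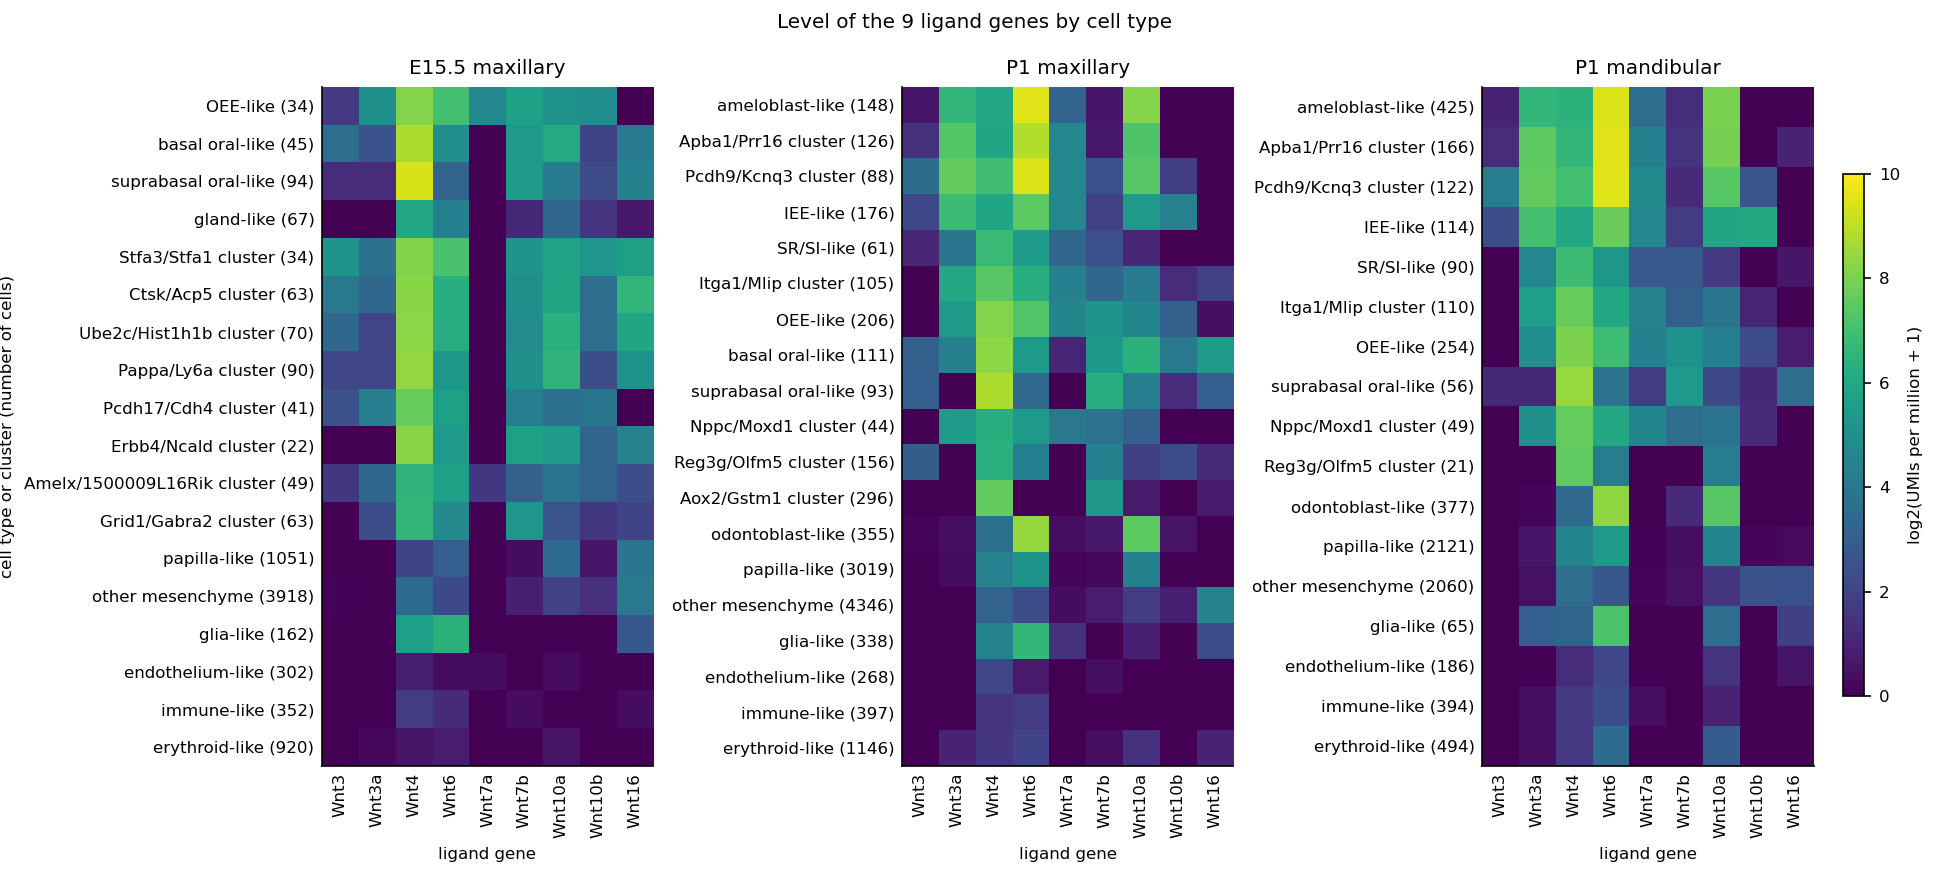
Level of each ligand gene, as log2(CPM + 1) on the colour scale, in epithelial types and clusters, odontoblast-like, papilla-like and other classes of the E15.5 maxillary, P1 maxillary and P1 mandibular libraries, for units of at least 20 cells, whose numbers stand in the row labels. Wnt6 and Wnt10a are high in ameloblast-like and odontoblast-like rows, Wnt4 and Wnt7b in oral and outer enamel epithelium rows, and Wnt10b, among P1 rows, in IEE-like cells.

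Ameloblast-like cells, named from Amelx (39759 and 61226 CPM in the P1 maxillary and mandibular libraries), Enam, Ambn and Mmp20, were rich in Wnt6 and Wnt10a. Wnt6 stood at 737 CPM (701 to 775) in the 148 maxillary and 686.5 CPM (666 to 708) in the 425 mandibular cells, against 162.5 and 234.5 CPM in the other epithelium-like cells. Wnt10a stood at 293 CPM (270 to 318) and 255.5 CPM (243 to 269), against 44.0 and 62.7 CPM. The log2 ratios were 2.18 (2.09 to 2.27) and 1.55 (1.49 to 1.61) for Wnt6 and 2.74 (2.58 to 2.89) and 2.03 (1.91 to 2.14) for Wnt10a. Both genes were higher in each library, by more than counting error. The other epithelium-like cells include the unnamed dental clusters, where Wnt6 stood at 705 CPM (657 to 756) and 721 CPM (679 to 765) in Pcdh9-led cells and at 455 CPM (424 to 488) and 742 CPM (706 to 780) in Apba1-led cells. Wnt10a stood there at 166 and 170 CPM in Pcdh9-led cells and at 152 CPM (134 to 171) and 247 CPM (227 to 269) in Apba1-led cells, the last beside 255.5 CPM in ameloblast-like cells of that library.

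The other members were lower in ameloblast-like cells or within 2-fold. Wnt4 was lower at 61.1 against 152 CPM and 85.5 against 171.5 CPM, and Wnt7b at 0.481 against 17.7 CPM and 1.50 against 14.0 CPM. Wnt10b, at 0 UMIs, was at least 4.18-fold and at least 16.9-fold lower. Wnt3 was past 2-fold on few counts (1 against 43 UMIs and 6 against 38 UMIs), with log2 ratios of -2.28 (-7.62 to 0.27) and -1.16 (-2.69 to 0.09) whose intervals span 0, and Wnt16, measured in the maxillary library alone, was at least 2.30-fold lower. Wnt3a (97.1 against 63.2 CPM and 96.7 against 72.3 CPM) and Wnt7a stayed within 2-fold. In all, 2 members were higher and 5 lower of 9 in the maxillary library, where 5.5% of all genes were higher and 31.3% lower, and 2 were higher and 4 lower of 8 in the mandibular library, where 5.63% were higher and 31.2% lower. The median log2 ratio of all genes was -0.48 in either library, against -1.20 and -0.84 for the members. The counts of lower members changed with the processing, being 2 of the 7 members still measured in each library once each cell was thinned to 2000 UMIs, and 3 in the maxillary library at Leiden resolution 0.5 or with shared barcodes kept in both libraries. The share of all genes was not computed under these settings.

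The ameloblast-like cells fell into clusters led by Calb1 and by Enam, and none of the 4 and 5 members with at least 20 UMIs over both differed between them by 2-fold. Wnt6 stood at 862 and 733 CPM in the Enam-led and at 715 and 641 CPM in the Calb1-led cells, and Wnt10a at 252 and 236 CPM against 301 and 274 CPM. Between these clusters, 6.45% of all genes were higher and 8.01% lower in the maxillary library, and 3.64% and 3.38% in the mandibular library.

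Wnt6 and Wnt10a were also high together in odontoblast-like mesenchymal cells. These were named from Dspp, Dmp1, Phex and Smpd3, with Smpd3 at 2273 and 2163 CPM and Dspp at 305 and 1029 CPM, and from the tooth mesenchyme gene Barx1 (567 and 446 CPM). The name is less firm than that of the ameloblast-like cells. Dspp was higher in ameloblast-like cells (2380 and 2359 CPM), and the bone gene Ifitm5 stood at 779 and 819 CPM and Ibsp at 12.7 and 329 CPM in odontoblast-like cells. In the first clustering of each P1 library, clusters led by Bglap or Ifitm5 scored highest on the osteoblast list, the odontoblast list not being used at that step, and what part bone cells have in the odontoblast-like values was not tested. Wnt6 stood at 340 CPM (326 to 354) in the 355 maxillary and 322 CPM (308 to 335) in the 377 mandibular cells, against 34.7 and 45.4 CPM in papilla-like cells. Wnt10a stood at 176 CPM (167 to 187) and 167 CPM (157 to 177), against 19.8 and 23.4 CPM. The log2 ratios were 3.29 (3.20 to 3.39) and 2.83 (2.73 to 2.92) for Wnt6 and 3.15 (3.02 to 3.28) and 2.83 (2.70 to 2.97) for Wnt10a. Most of these cells (548 of 732) are of a cluster led by Smpd3 and Ifitm5 that is not set apart from bone by its scores, and the rest of one led by Dspp and Dmp1. In the Dspp-led cells alone, a choice made after seeing the data, the log2 ratios over papilla-like cells were 3.68 (3.54 to 3.82) and 3.34 (3.23 to 3.46) for Wnt6 and 3.19 (2.98 to 3.39) and 2.58 (2.39 to 2.76) for Wnt10a, where 9.46% and 9.6% of all genes were at least 2-fold higher.

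Of the members, 3 had at least 20 UMIs over these classes, and Wnt6 and Wnt10a were the 2 that were higher, where 6.52% and 6.72% of all genes were in the maxillary and mandibular library. Wnt4 stood at 12.04 against 20.5 CPM, within 2-fold, in the maxillary and at 9.68 against 21.9 CPM, past it, in the mandibular library (and past it in both in the Dspp-led cells alone, at 3.49 and 3.55 CPM), where 27.4% and 26.8% of all genes were lower and the median log2 ratio of all genes was -0.39 in either. The other 6 members had under 20 UMIs over both, with 2 and 1 UMIs of Wnt3a in odontoblast-like cells.

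Because odontoblasts face ameloblasts across the forming dentin, epithelial transcripts in these cells are given beside the ligands. Odontoblast-like cells had 4.0 and 10.7 CPM of Krt14, against 2945.5 and 2552 CPM in ameloblast-like cells. They had 26.5 and 163 CPM of Amelx, beside 16.4 and 178 CPM in immune-like cells, where Wnt6 was at 2.4 and 4.3 CPM. Per 1000 Amelx UMIs there were 18.5 and 11.2 Wnt6 UMIs in ameloblast-like cells and 12834 and 1975 in odontoblast-like cells. What part of the odontoblast-like Wnt6 UMIs came from other cells was not tested.

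Ameloblast-like cells had more Wnt6 than odontoblast-like cells, by a log2 ratio of 1.12 (1.02 to 1.21) and 1.09 (1.02 to 1.17), whereas Wnt10a was within 2-fold at 0.73 (0.59 to 0.87) and 0.62 (0.51 to 0.73). Wnt3a, Wnt4 and Wnt7a set the types apart. Wnt3a stood at 97.1 and 96.7 CPM against 0.283 and 0.142 CPM, Wnt4 at 61.1 and 85.5 CPM against 12.04 and 9.68 CPM, and Wnt7a at 8.65 and 10.8 CPM against 0.283 CPM and 0 UMIs (at least 25.3-fold in the mandibular library). That makes 4 of the 5 measured members higher in each library, where 11.9% and 14% of all genes were higher and 24.3% and 22.1% lower.

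The cluster led by Dspp and Dmp1 held 62 and 122 cells and the one led by Smpd3 and Ifitm5 293 and 255 cells. Dspp stood at 1459 and 2827 CPM in the former and at 11.7 and 13.1 CPM in the latter, which scored 0.761 on the osteoblast list and 0.710 on the odontoblast list, whereas the Dspp-led cluster scored 0.807 and 0.992 (a score of 1 being the highest cluster for every marker). Wnt4 was lower in the Dspp-led cells, at 3.49 against 14.2 CPM and 3.55 against 13.15 CPM, where 15.3% and 13.4% of all genes were lower and 5.73% and 8.39% higher. Wnt6 stood at 444 against 313 CPM and 460 against 243 CPM, and Wnt10a at 181 against 175 CPM and 139.5 against 182 CPM, all within 2-fold, though the intervals of the log2 ratio of Wnt6, 0.50 (0.37 to 0.64) and 0.92 (0.80 to 1.04), do not reach 0. Within the papilla, Wnt6 and Wnt10a were unevenly spread, with 86.9 and 85.5 CPM of Wnt6 and 53.9 and 49.1 CPM of Wnt10a in a cycling cluster led by Ube2c and Hmgb2. Wnt4 had another place, at 75.0 and 58.8 CPM in papilla-like cells led by Grm8 and Fabp7.

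The share of Wnt10a to Wnt6 UMIs can be compared between types, on the assumption that each gene is captured alike in all of them. At P1 there were 51.9 (48.4 to 55.6) and 51.8 (48.3 to 55.7) Wnt10a UMIs per 100 Wnt6 UMIs in odontoblast-like cells and 57.1 and 51.6 in papilla-like cells. Ameloblast-like cells had 39.8 (36.2 to 43.7) and 37.2 (35.1 to 39.5), the Apba1-led cluster 33.4 and 33.3 and the Pcdh9-led cluster 23.5 and 23.6. The ratio was lower again in OEE-like cells, at 14.5 (11.03 to 18.7) and 16.1 (12.6 to 20.3), and in SR/SI-like cells, at 4.46 (1.42 to 10.7) over both libraries. The papilla-like value is an average of unlike clusters, from 8.11 (2.88 to 18.5) and 4.82 (1.28 to 12.8) in Csmd1-led and 15.1 (9.85 to 22.4) and 12.8 (8.06 to 19.4) in Grm8-led cells to 101.9 (83.8 to 124) and 70.0 (55.7 to 87.8) in Pappa-led cells. Odontoblast-like and ameloblast-like intervals do not overlap in either library, but neither this order nor the likeness of the libraries holds for every cluster.

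Within a type the ratio also varied. It was 56.0 and 74.9 in Smpd3-led and 40.7 and 30.3 in Dspp-led odontoblast-like cells of the maxillary and mandibular libraries, or 63.2 (59.5 to 67.0) and 34.0 (31.0 to 37.3) over both. The libraries stood apart within each of these clusters, at 56.0 (51.7 to 60.5) against 74.9 (68.3 to 82.1) in Smpd3-led and 40.7 (35.1 to 47.1) against 30.3 (26.8 to 34.2) in Dspp-led cells, so that the values over both are averages of unlike libraries. It was 42.1 and 42.8 in Calb1-led and 29.3 and 32.2 in Enam-led ameloblast-like cells, or 42.5 (39.9 to 45.3) and 31.9 (29.4 to 34.6) over both. The intervals of each pair do not overlap in either library, the cluster led by the dentin gene Dspp and that led by the enamel gene Enam having the lower ratio. The Dspp-led cells turn the order of the types in the mandibular library, with 30.3 (26.8 to 34.2) below the 37.2 (35.1 to 39.5) of ameloblast-like cells, while their 40.7 (35.1 to 47.1) stood beside 39.8 in the maxillary library. Wnt10a UMIs outnumbered those of Wnt6 in some units. Highest of the units compared was the E15.5 mesenchymal cluster led by bone genes (Ibsp and Ifitm5) and cartilage genes (Col2a1 and Hapln1). It had 52 Wnt10a and 7 Wnt6 UMIs over both libraries (743 per 100, 336 to 1939), and Wnt10a stood there at 25.2 CPM (12.6 to 45.02) and 23.5 CPM (16.8 to 31.8). Others were basal oral-like cells, with 198 (134 to 295) in the P1 maxillary and 239 (135 to 440) in the E15.5 maxillary library. In the latter this held too for suprabasal oral-like cells (206, 112 to 392), the cluster led by Pappa and Ly6a (228, 160 to 330) and papilla-like cells (151, 112 to 203). Across the whole epithelium the ratio was 83.6 and 71.5 at E15.5 and 31.4 and 32.1 at P1 in the maxillary and mandibular libraries.

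**Figure D3:**
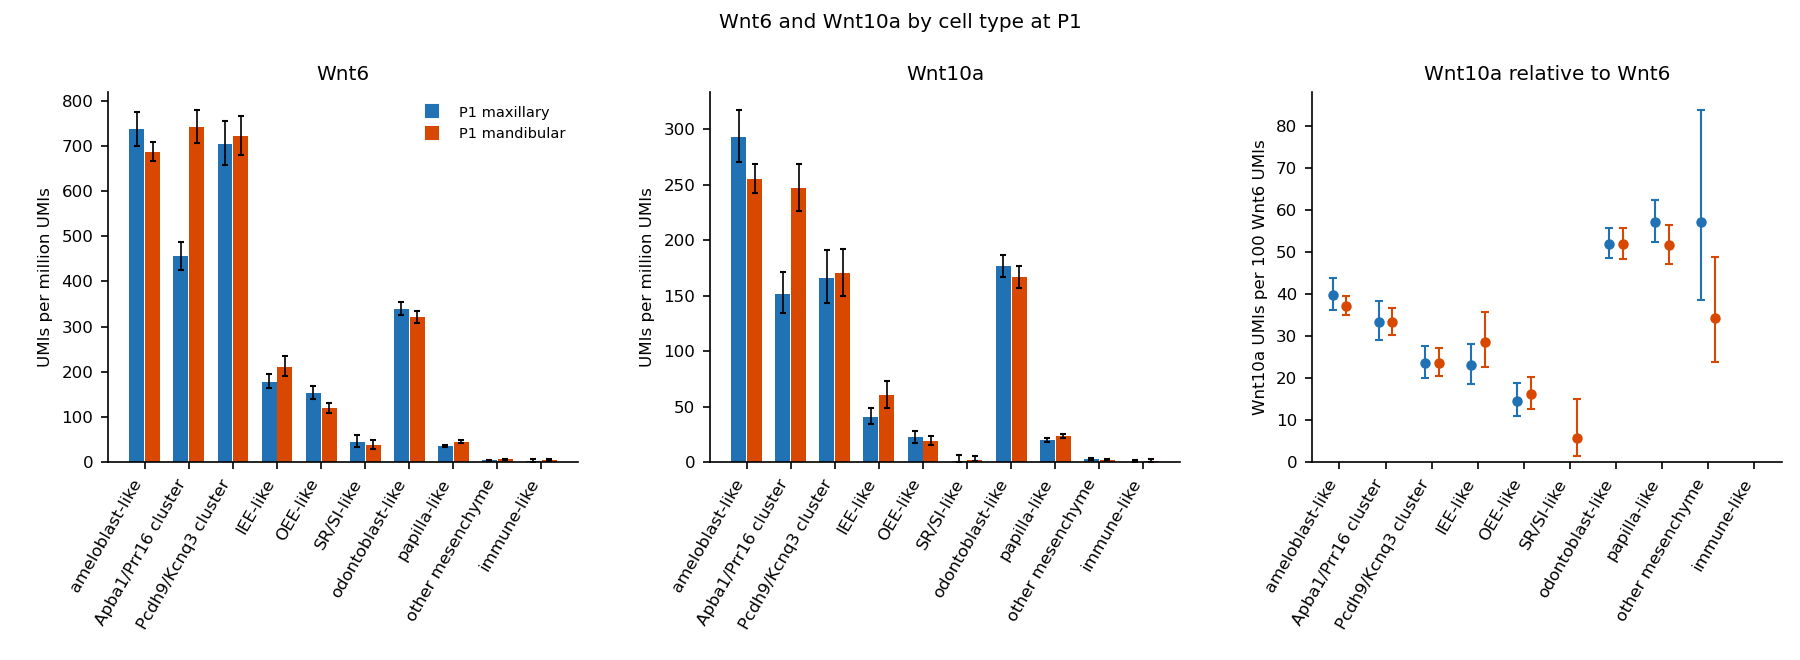
Wnt6 and Wnt10a levels (CPM) by type in the P1 maxillary and mandibular libraries with exact Poisson 95% intervals, and beside them the Wnt10a UMIs per 100 Wnt6 UMIs with binomial 95% intervals; no ratio is drawn where fewer than 50 UMIs of both genes or 20 of Wnt6 were counted. Wnt6 is highest in ameloblast-like cells and the unnamed dental clusters, and the ratio is higher in all odontoblast-like cells (51.9 and 51.8) than in ameloblast-like cells (39.8 and 37.2), while the Dspp-led odontoblast-like cells have 40.7 in the maxillary library, where the intervals overlap, and 30.3 in the mandibular library, below the ameloblast-like cells.

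Single ameloblast-like and odontoblast-like cells carried the pair together. With all UMIs, 92.6% (maxillary) and 91.1% (mandibular) of the ameloblast-like cells had a UMI of each gene, as had 83.1% and 80.4% of the odontoblast-like cells. As these shares grow with depth, each cell was also thinned to 2000 UMIs, which left out 1 and 1 ameloblast-like cells and no odontoblast-like cell. The shares were then 32.9% (25.4 to 41.2) and 28.8% (24.5 to 33.4) in ameloblast-like and 14.3% (10.8 to 18.3) and 12.4% (9.23 to 16.1) in odontoblast-like cells. Of the immune-like cells 0 of 308 and 0 of 381 had both at that depth, which allows up to 1.19% and 0.964%, and of the erythroid-like cells 0.119% and 0.0788%. What part free RNA has in the shares of any of these types was not tested. The median depths before thinning were 14092.5 and 13859 UMIs in ameloblast-like, 19402 and 17600 in odontoblast-like, 2761 and 7064 in immune-like and 1927 and 6763 in erythroid-like cells, of which 89 and 13 immune-like and 622 and 24 erythroid-like cells were too shallow to be thinned. The mandibular erythroid-like class includes a cluster of 59 cells led by B-cell genes such as Vpreb3, Ighm and Cd79a.

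Within these types the genes were found together about as often as their separate shares would give. The product of the shares was 31.8% and 27.6% in ameloblast-like cells and 12.7% and 12.1% in odontoblast-like cells. Each was below the observed share but inside its interval, which leaves out the counting error of the product, so a weak link between the genes cannot be told from none. Over all epithelium-like cells, which mix the types, the observed share was 5.10% against a product of 1.93% in the maxillary and 14.2% against 8.52% in the mandibular library, with 264 and 20 shallower cells left out. Papilla-like cells had both in 0.563% (0.328 to 0.90) and 0.724% (0.409 to 1.18), above the products of 0.172% and 0.292%. The Apba1-led cluster of the mandibular library had both in 29.1% (22.3 to 36.6) of cells, beside 28.8% in ameloblast-like cells of that library.

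Other pairs showed the same feature. Wnt3a and Wnt6 were found together in 20.5% and 23.4% of Pcdh9-led cells, against products of 20.9% and 23.3%, and in 12.97% and 12.4% of ameloblast-like cells, against 12.8% and 12.5%. Wnt4 and Wnt6 were together in 11.1% of mandibular ameloblast-like cells and 10.3% of maxillary OEE-like cells, with products of 10.55% and 10.1%. Cells with at least 2 of the 9 members at 2000 UMIs made up 47.5% and 45.8% of ameloblast-like, 47.3% and 53.0% of Pcdh9-led, 17.8% and 27.2% of IEE-like, 15.3% and 13.4% of odontoblast-like and 4.69% and 3.22% of SR/SI-like cells, and 0% of immune-like cells. The most that a single cell held, with all its UMIs, was 8 members.

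**Figure D4:**
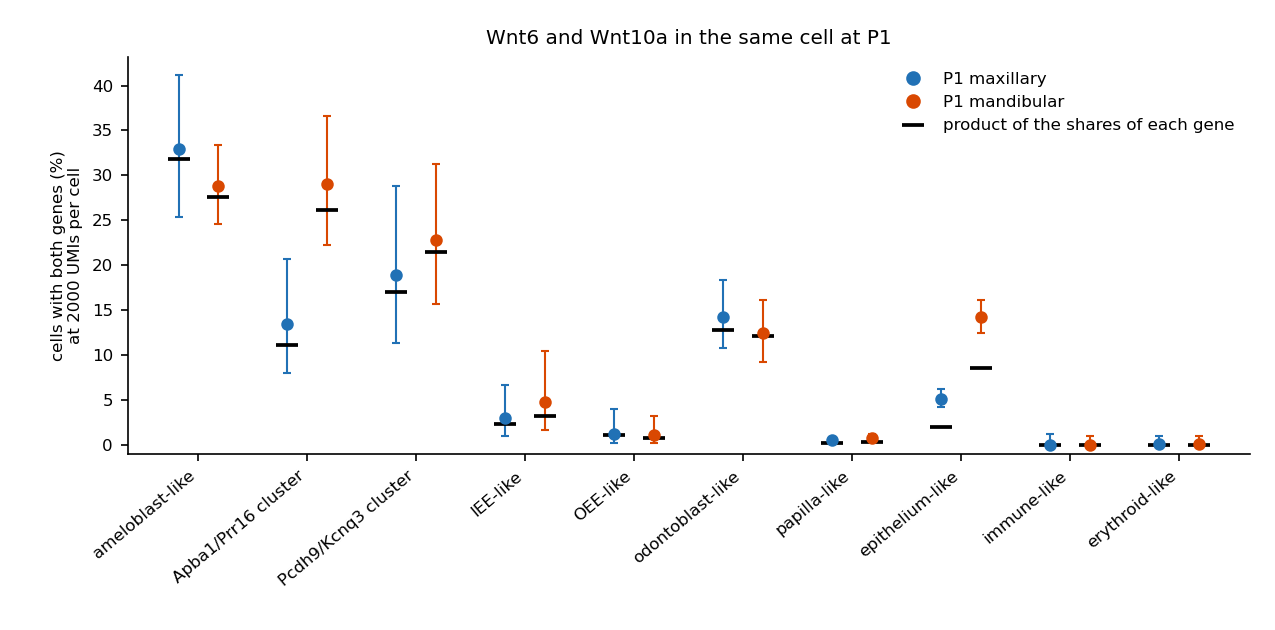
Share of cells (%) with at least 1 UMI of Wnt6 and of Wnt10a by type in the P1 libraries, each cell thinned to 2000 UMIs, with binomial 95% intervals; the black dash is the product of the separate shares. The share is 32.9% and 28.8% in ameloblast-like cells, 29.1% in mandibular Apba1-led cells and 14.3% and 12.4% in odontoblast-like cells, and the dashes of the ameloblast- and odontoblast-like cells lie within their intervals.

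Among E15.5 maxillary cells, a small cluster of 19 cells carried the enamel knot and inner enamel epithelium markers Shh (1134 CPM, against 33.6 CPM in all epithelium-like cells of the library), Fgf4 (140 against 2.59 CPM), Fgf9 and Edar (257 against 20.8 CPM) and is called EK/IEE-like. It was rich in several ligands at the same time. Wnt10b stood at 216 CPM (159 to 286, 48 UMIs) against 8.58 CPM in the other 684 epithelium-like cells, Wnt3a at 126 CPM (28 UMIs) against 6.80 CPM, Wnt6 at 171 CPM (38 UMIs) against 46.4 CPM, Wnt10a at 121.5 CPM (27 UMIs) against 39.2 CPM and Wnt3 at 27.0 CPM (6 UMIs) against 5.61 CPM. Wnt4 was lower, at 36.0 CPM (8 UMIs) against 303 CPM, as were Wnt7b, at 0 UMIs against 28.1 CPM and so at least 2.08-fold, and Wnt16, at 9.0 CPM (2 UMIs) against 27.2 CPM, with a log2 ratio of -1.59 (-4.65 to 0.27) that counting error spans.

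That made 5 members higher and 3 lower of 8, where 19.4% of all genes were higher and 12.2% lower and the median log2 ratio of all genes was 0.38. Of the 9 genes of the Wnt response, 7 were higher and 1 lower. Lef1, a transcription factor of the pathway, stood at 1373 against 56.5 CPM, the feedback genes Axin2 at 85.5 against 11.9 CPM, Nkd1 at 189 against 4.50 CPM, Znrf3 at 540 against 164 CPM and Rnf43 at 261 against 56.5 CPM, and Sp5 at 90.01 against 2.97 CPM. Lgr5, a receptor for R-spondins, was at 0 against 63.0 CPM. Notum (176 against 2.38 CPM) and Porcn (31.5 against 5.78 CPM) were also higher, as was Wnt5a (198 against 11.9 CPM), a ligand outside the 9. All this rests on 19 cells of 1 library. These values leave out the cluster's 5 mandibular cells, with which it held 41 Wnt10a and 48 Wnt6 UMIs.

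The Dab1-led IEE-like cells at P1 (98 maxillary and 77 mandibular cells) resembled them in Wnt3a and Wnt10b, less so in Wnt6 and Wnt10a. Wnt10b stood at 47.4 against 2.80 CPM and 121 against 1.8 CPM in the other epithelium-like cells, Wnt3a at 155 against 61.1 CPM and 172 against 75.05 CPM, and Wnt3 at 5.82 against 1.92 CPM and 6.99 against 1.71 CPM. Wnt4 (49.1 against 149 CPM and 73.4 against 152 CPM) and Wnt7b (3.33 against 16.7 CPM and 3.50 against 11.05 CPM) were lower. Wnt6 and Wnt10a were within 2-fold. Of all genes, 7.53% and 13.1% were higher and 13.8% and 9.39% lower. Lef1 (113 against 20.6 CPM and 404 against 22.8 CPM), Notum (6.65 against 1.14 CPM and 14.0 against 1.40 CPM) and Znrf3 were higher here too, and Lgr5 was at 0 UMIs.

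Between E15.5 and P1 the epithelial levels moved in opposite directions. Wnt6 went from 48.7 to 221 CPM in the maxillary and from 64.3 to 352 CPM in the mandibular epithelium, log2 ratios of 2.18 (2.06 to 2.31) and 2.45 (2.23 to 2.69). Wnt3a was higher by 2.89 (2.60 to 3.18) and 2.46 (1.98 to 2.99), and Wnt7a by 3.59 (2.82 to 4.48) and 2.67 (1.54 to 4.13) from 14 and 6 UMIs at E15.5. Wnt16 was lower, from 26.9 to 2.98 CPM and from 21.2 to 0.651 CPM, and so was Wnt3, from 6.00 to 2.15 CPM and from 11.4 to 1.91 CPM. In the maxillary library the higher levels of Wnt6 and Wnt3a rest on shared barcodes. With these dropped from both P1 libraries and the cells clustered anew, Wnt6 stood at 31.7 CPM (151 UMIs) and Wnt3a at 6.73 CPM (32 UMIs) at P1, both below E15.5, by log2 ratios of -0.62 and -0.42. Wnt7a was still past 2-fold higher by value (1.11), but on 12 UMIs at P1 and 14 at E15.5, and no interval was computed for it. Wnt10a, which is described next, then stood at 14.7 CPM (70 UMIs) and was lower than at E15.5 by more than 2-fold (-1.47). The mandibular values stayed as given.

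The remaining members passed 2-fold in 1 jaw only. Wnt10a moved from 40.7 to 69.4 CPM (log2 0.77, 0.62 to 0.92) and from 46.0 to 113 CPM (1.30, 1.02 to 1.58), Wnt4 from 298 to 143 CPM (-1.06) and from 274 to 149 CPM (-0.88), Wnt10b by -1.20 and -0.45 and Wnt7b by -0.79 and -1.36. Whether these jaws differ was not tested. In the maxillary library 3 members were higher and 4 lower of 9, where 13.5% of all genes were higher and 8.93% lower. With shared barcodes dropped from both P1 libraries 1 was higher (Wnt7a, on 12 UMIs at P1). Wnt4 was then within 2-fold (173 against 298 CPM, -0.78), Wnt7b stood at -0.17, and Wnt10a took the place of Wnt4 among the 4 lower members (-1.47). In the mandibular library 4 were higher and 3 lower, where 11% and 11.5% were. With each cell thinned to 2000 UMIs, 2 of the 8 maxillary and 1 of the 7 mandibular members still measured were lower. The share of all genes was not computed with shared barcodes dropped from both or with cells thinned.

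These epithelia are not of the same make-up, since ameloblast-like cells were named at P1 only, and the part of this in the change was not tested. An unnamed E15.5 cluster of 82 cells led by Amelx also had the ameloblast list highest, with 1 marker raised. Its 33 mandibular cells held 604 Amelx UMIs and its 49 maxillary cells 0. The P1 maxillary epithelium also held clusters with few or no cells in the P1 mandibular library, among them 296 cells led by Aox2 and Gstm1 (nasal or olfactory list highest), 156 led by Reg3g and Olfm5 (gland list highest), 80 led by Ebf1 and Pex5l, 50 led by Hpse2 and Galntl6 and 29 nasal-like cells. Wnt6 had 14 UMIs in the Reg3g-led cells, 1 in the nasal-like cells and 0 in the other 3 of these. Of its 148 ameloblast-like cells all but 1 carry shared barcodes, so that the values with these dropped, -0.62 for Wnt6 among them, come from another mix of cells. Within epithelial types, 7 members could be measured in OEE-like, 6 in basal oral-like and 5 in suprabasal oral-like cells. In OEE-like cells of the maxillary library (34 cells at E15.5 and 206 at P1), Wnt4 stood at 283 and 285 CPM, Wnt6 at 124 and 153 CPM and Wnt3a at 31.5 and 45.7 CPM, and Wnt10b, from 29.2 to 7.61 CPM, was the member past 2-fold, where 5.05% of all genes were lower and 14.3% higher. OEE-like cells are of different clusters at each stage. Of the 23 P1 UMIs of Wnt10b in the maxillary library, 22 were in cells led by Plcb1 and Nell1, at 18.4 CPM (11.5 to 27.8), within 2-fold of the 29.2 CPM (15.6 to 50.02) of the E15.5 cells led by Cadm2 and Cntn5, and 1 was in those led by Mindy4 and Odam. In basal oral-like cells (45 and 111 cells), Wnt16 was higher at P1, from 15.9 to 45.03 CPM, and Wnt3a from 4.77 to 19.9 CPM, where 7.37% of all genes were. These cells too are of different clusters, led by Unc13c and Eya4 at E15.5 and by Pappa and Krt15 at P1. An unnamed E15.5 cluster led by Pappa and Ly6a also had the basal oral list highest. Its maxillary cells had Wnt16 at 34.6 CPM (24.9 to 47.0), within 2-fold of the P1 value. In suprabasal oral-like cells (94 and 93 cells), Wnt16 was lower, from 20.1 to 6.97 CPM, where 7.16% of all genes were, and Wnt4 stood at 669 and 438 CPM. This class joins clusters led by Krt6a and by Cyp2t4 at E15.5, and is led by Krt4 and Krt13 at P1. At E15.5, 21 cells led by Cyp2t4 and Mt3 held 16 Wnt16 UMIs (55.3 CPM, 31.6 to 89.8). The P1 value rests on 5 UMIs (2.26 to 16.3 CPM). The log2 ratio of Wnt6 in OEE-like cells was 0.31 (-0.10 to 0.74), which counting error spans.

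Papilla-like cells also differed between the stages. They numbered 1051 and 142 at E15.5 and 3019 and 2121 at P1 in the maxillary and mandibular libraries. Of the 3019, 2955 (97.9%) carry barcodes also found in the mandibular library, and no values without them were computed. The class is of different clusters at each stage, and the part of this in the change was not tested. The largest E15.5 cluster, of 517 cells, scored 0.516 on the papilla list and 0.401 on the follicle list. Wnt6 went from 6.86 to 34.7 CPM and from 4.70 to 45.4 CPM, and Wnt4 from 3.12 to 20.5 CPM and from 2.94 to 21.9 CPM, where 12.3% and 8.61% of all genes were at least 2-fold higher. Wnt16 went the other way, from 160 UMIs (13.9 CPM) to 0 UMIs in the maxillary library, at least 185-fold lower, and from 9.39 CPM (16 UMIs) to 0.230 CPM (7 UMIs) in the mandibular library, where 9.5% and 9.43% of all genes were lower. Wnt10a, at 10.3 and 19.8 CPM and at 14.7 and 23.4 CPM, stayed within 2-fold as a class value, but at E15.5 it came mostly from few cells. A cluster of 172 cells led by Plppr1 and Dlx6os1 held 118 of the 144 E15.5 Wnt10a UMIs, at 91.3 CPM (73.7 to 112) in its 95 maxillary and 26.9 CPM (17.4 to 39.8) in its 77 mandibular cells, and the other E15.5 papilla-like clusters stood between 0 and 5.55 CPM in either library.

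**Figure D5:**
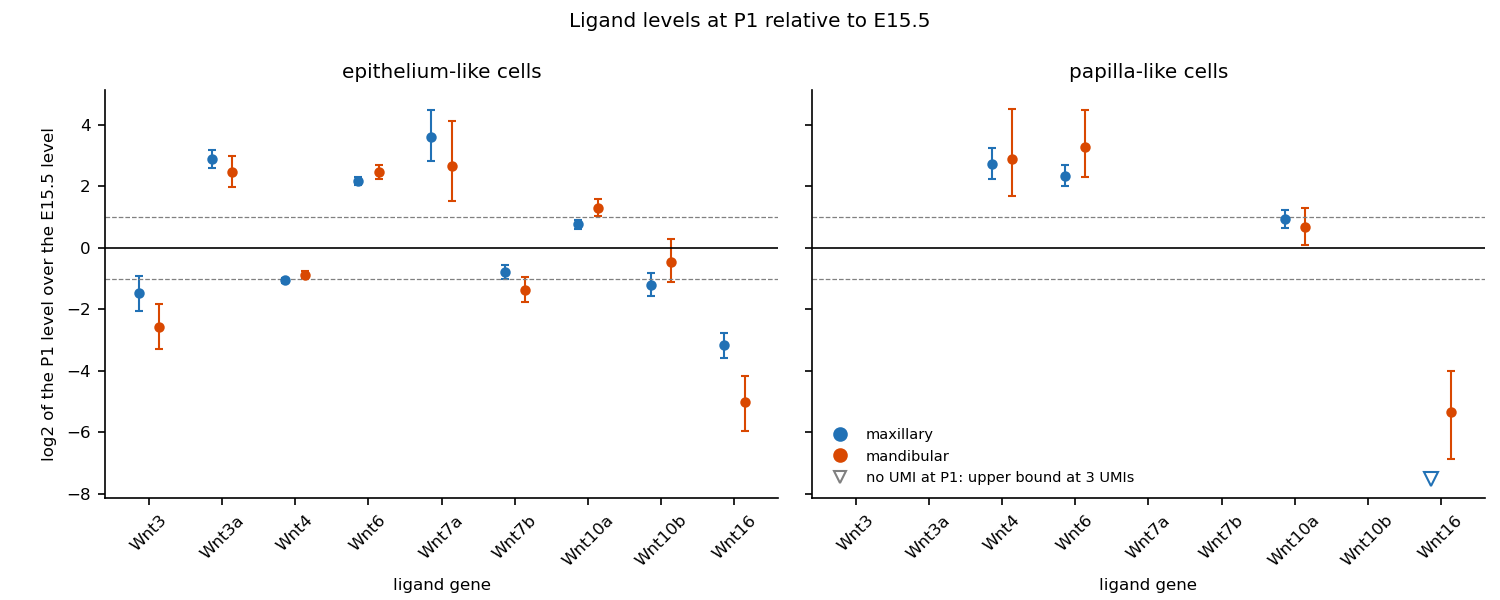
log2 ratio of P1 over E15.5 levels of the ligand genes in epithelium-like and papilla-like cells of each jaw, with 95% intervals for counting error, dashed lines at 2-fold and an open triangle for a bound; genes under 20 UMIs are not drawn. Wnt6 is higher at P1 in both compartments (2.18 and 2.45 in epithelium) and Wnt16 lower in both (-3.17 and -5.02 in epithelium), but the maxillary value of Wnt6 in epithelium is -0.62 with shared barcodes dropped from both P1 libraries. Of the P1 maxillary papilla-like cells, 97.9% carry shared barcodes, and papilla values without them were not computed.

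Between jaws few members passed 2-fold. At E15.5, 0 members were higher and 1 lower in the maxillary than in the mandibular epithelium, where 5.33% and 5.11% of all genes were, the exception being Wnt7a on 14 and 6 UMIs (1.17 against 2.44 CPM), with a log2 ratio of -1.07 (-2.54 to 0.60) that counting error spans. At P1, Wnt16 was higher (2.98 against 0.651 CPM, 61 and 15 UMIs) and none was lower, where 8.46% and 2.98% were. Wnt6 (221 against 352 CPM) and Wnt10a (69.4 against 113 CPM) had log2 ratios of -0.67 and -0.70 in P1 epithelium, short of 2-fold. With shared barcodes dropped from both libraries, 2 members were higher and 4 lower in the maxillary P1 epithelium, and with each cell thinned to 2000 UMIs 0 were higher and 2 lower (Wnt6 and Wnt10a) of the 7 still measured. For neither setting was the share of all genes computed, so these counts have no background to stand beside. Within some types of the P1 libraries the difference in Wnt6 and Wnt10a was small, at 0.10 (0.02 to 0.19) for Wnt6 and 0.20 (0.06 to 0.34) for Wnt10a in ameloblast-like cells, where 1.25% of all genes were higher and 4.01% lower, and at 0.08 and 0.08 in odontoblast-like cells, where 1.67% and 3.07% were. It was not small in the Apba1-led cluster, with Wnt6 at 455 CPM (424 to 488) against 742 CPM (706 to 780) and Wnt10a at 152 CPM (134 to 171) against 247 CPM (227 to 269). Among IEE-like cells, where 1.53% of all genes were higher and 4.43% lower, Wnt10b (20.6 against 65.5 CPM) was past 2-fold. In OEE-like cells, where 1.08% and 4.12% were, and in SR/SI-like cells, where 2.08% and 2.56% were, every measured member was within 2-fold. As most P1 maxillary dental cells carry barcodes also found in the mandibular library, none of these P1 values can be read as a comparison of jaws.

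The rest of the pathway was followed with a fixed list. Of the secretion genes, Wls was at least 2-fold higher in P1 epithelium than in mesenchyme (398 against 184 CPM and 492 against 193 CPM) and Notum lower (1.47 against 65.7 CPM and 1.87 against 63.3 CPM), with Porcn within 2-fold. At E15.5 none of these 3 passed 2-fold in either jaw. In ameloblast-like cells none of the 3 passed 2-fold against other epithelium, whereas all 4 measured ligands outside the 9 were lower, among them Wnt5a (3.37 against 72.3 CPM and 5.66 against 121 CPM) and Wnt5b (0.481 against 17.3 CPM and 0.499 against 24.6 CPM), both ligands of the beta-catenin-independent route. Of 11 measured receptors in each library, 5 (maxillary) and 6 (mandibular) were lower and none higher. Among the response genes Nkd1 was higher (19.7 against 7.50 CPM and 22.1 against 8.99 CPM), while 5 of 9 and 4 of 8 were lower, with Znrf3 at 50.5 against 150 CPM and 66.2 against 157 CPM. These counts stand beside the 31.3% and 31.2% of all genes that were lower in ameloblast-like cells.

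In odontoblast-like cells the extracellular Wnt inactivator was higher. Notum stood at 366 against 38.3 CPM in papilla-like cells of the maxillary and 303 against 51.4 CPM of the mandibular library, and Nkd1 at 129 against 47.0 CPM and 114 against 52.2 CPM. Wls was lower, at 80.01 against 215 CPM and 86.3 against 257 CPM, as was Lef1, at 20.8 against 48.4 CPM and 11.96 against 61.6 CPM. Of the 9 response genes, 4 and 2 were higher and 1 and 1 lower, and of the 12 receptors 1 and 1 were higher and 5 and 4 lower, with Fzd1 at 9.91 against 38.3 CPM and 7.12 against 43.2 CPM. Of all genes, 6.52% and 6.72% were higher and 27.4% and 26.8% lower in this comparison. The counts changed with the cluster. In Dspp-led cells 1 and 1 response genes were higher and 2 and 1 lower, and 1 and 1 receptors higher and 7 and 7 lower, where 9.46% and 9.6% of all genes were higher and 27.1% and 30.3% lower, and Nkd1 was within 2-fold (76.1 and 80.4 CPM). Of the 3 secretion genes, Notum was higher there too (310 and 227 CPM), whereas Wls (36.3 and 71.7 CPM) and Porcn (2.79 and 2.76 CPM, 4 and 7 UMIs, against 11.96 and 10.5 CPM in papilla-like cells) were lower. In Smpd3-led cells 5 and 4 response genes were higher and 2 and 1 lower, and 1 and 1 receptors higher and 4 and 5 lower, with Notum higher, Wls lower and Porcn within 2-fold, where 5.53% and 4.7% of all genes were higher and 25.7% and 24% lower.

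Likeness of pattern was measured as Pearson's r of log2(CPM + 1) over 77 units of 1 type in 1 library with at least 30 cells, among 9586 genes with at least 50 CPM in some unit. These units share libraries and differ in depth, so r is a description. Wnt6 and Wnt10a had each other as the most similar gene (r = 0.84). Next to Wnt6 came Minar2 (0.81), Wnt3a (0.79), Irx5 (0.78) and the homeobox gene Msx2 (0.77), and next to Wnt10a the laminin gene Lamb3 (0.80), Dlx4os, Tspear and Dlx4 (0.78). Wnt3a was most like Otof (0.89) and the retinoic acid-degrading enzyme gene Cyp26a1 (0.88), Wnt4 most like the stratifin gene Sfn (0.89) and the desmosome gene Dsp (0.88), Wnt7b most like S100a14 (0.87) and Wnt10b most like the ectodysplasin receptor gene Edar (0.78). Wnt16 was most like Cpa6 (0.82). Wnt3 and Wnt7a did not reach 50 CPM in a unit and were not ranked. Among member pairs, r ranged from 0.89 for Wnt3a with Wnt7a to -0.31 for Wnt7a with Wnt16, with 0.84 for Wnt6 with Wnt10a and 0.82 for Wnt4 with Wnt7b.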

How the data were processed

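Molar tooth organs were profiled with Chromium Next GEM Single Cell 3' v3.1 chemistry. The deposited values are UMI counts per gene and barcode, which the authors made with Cell Ranger (7.0.1 per the file headers) on mm10 with its prebuilt annotation. The authors' later cell filters and cell types were not used here. The 4 libraries held from 86659227 to 139873101 UMIs, and no column of another series was used.

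Barcodes with at least 1000 UMIs were used, and barcodes shared by the P1 libraries were dropped from the mandibular one. The barcodes with the highest Scrublet scores (0.8% per 1000 barcodes) and cells over 3 MADs in mitochondrial share (limits of 5.41%, 6.49%, 6.12% and 5.73%) were removed, which took 812, 382, 2323 and 819 doublets and 866, 470, 957 and 1143 cells of the E15.5 maxillary, E15.5 mandibular, P1 maxillary and P1 mandibular libraries. Cells were clustered by library into classes, and epithelium-like and mesenchyme-like cells again by stage, in scanpy 1.11.5 (2000 variable genes without Wnt pathway genes, 15 neighbours, Leiden resolution 1), and clusters were named "like" a type from fixed markers. Naming thresholds were chosen with the clusters in view, and clusters under them stayed unnamed. UMIs were summed over the cells of a type, and levels compared at 2-fold where a pair of classes held at least 20 UMIs. A class at 0 UMIs was set to a floor of 3 UMIs over the class. Percentages of all genes past 2-fold use the same rule. With 1 library per stage and jaw no p-value was computed. Scripts were tested on simulated data. Shares of cells at 2000 UMIs are means over all possible draws.

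The members, pathway lists and comparisons were chosen with earlier results of these data known. The genes named were all 9 members, pathway genes of 4 fixed lists (secretion, other ligands, receptors, response) past 2-fold, the 5 genes most like a member, and type markers. Alternatives varied the shared barcodes, doublets, minimum UMIs, gene limits, Leiden resolution, depth and the 20-UMI minimum.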

Additional observations from a re-analysis of the deposited data

Results flagged for a closer look

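Outside the epithelium and the dental mesenchyme, 4 levels stood out because the lower bound of their interval was over 10 times the immune-like level. Wnt6 in glia-like cells, which wrap the nerves of the jaw, stood at 71.4 CPM at E15.5 (251 UMIs in 263 cells) and at 115 CPM at P1 (218 UMIs in 403 cells), where immune-like cells reached at most 2.34 and 5.56 CPM. Wnt10a was at 0 UMIs in the E15.5 glia-like cells. At P1 it had 9 UMIs there, 8 of them in the mandibular library, where glia-like cells also held 586 Amelx UMIs. Wnt4 in glia-like cells stood at 33.9 CPM at E15.5 (119 UMIs). It differed between the libraries, at 49.6 CPM (39.9 to 61.0) in the maxillary and 17.05 CPM (11.4 to 24.5) in the mandibular one. Mural-like cells, named for the cells that wrap blood vessels, differed the other way, at 14.9 CPM (8.98 to 23.3) and 44.5 CPM (31.5 to 61.1, 38 UMIs in 9 of 63 cells). Wnt4 in chondrocyte-like cells stood at 92.5 CPM (67.2 to 124), on 44 UMIs in 17 cells of the maxillary library. Immune-like cells reached at most 3.49 CPM of Wnt4 at E15.5.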

How the results depend on the processing

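The labels carry no replicate numbers by which to pair libraries. Stages were compared within each jaw, and a fit of stage with jaw as a block was not run. Wnt6 and Wnt10a were at least 2-fold higher in ameloblast-like than in other epithelium-like cells and in odontoblast-like than in papilla-like cells in every alternative that gave a value. The share of cells with both genes followed depth. In the order ameloblast-like maxillary, odontoblast-like maxillary, ameloblast-like mandibular and odontoblast-like mandibular it was 92.6%, 83.1%, 91.1% and 80.4% with all UMIs, 13.4%, 4.85%, 11.3% and 4.14% at 1000 UMIs and 61.9%, 33.7%, 55.8% and 30.3% at 4000 UMIs, and Leiden resolution 2 gave 19.3% in maxillary odontoblast-like cells. With each cell thinned to 2000 UMIs, which leaves fewer members with 20 UMIs, members higher in epithelium in the E15.5 mandibular library numbered 4 (of 4 measured) in place of 8, members lower at P1 2 in place of 4 (maxillary) and 1 in place of 3 (mandibular), members lower in ameloblast-like cells 2 in place of 5 and 2 in place of 4, and members lower in mandibular odontoblast-like cells 0 in place of 1. Thinning left 0 members lower in maxillary E15.5 epithelium and 0 higher in maxillary P1 epithelium in place of 1 each, and put 2 lower (Wnt6 and Wnt10a) in place of 0 there. With shared barcodes dropped from both P1 libraries, 1 member in place of 3 was higher at P1 in maxillary epithelium, where the log2 ratio turned to -0.62 for Wnt6 and -0.42 for Wnt3a, Wnt4 moved within 2-fold (-0.78) and Wnt10a to -1.47, and 2 were higher and 4 lower in the maxillary than in the mandibular P1 epithelium, while P1 maxillary ameloblast-like and odontoblast-like cells were under 20 and gave no value. With them kept in both, or at Leiden resolution 0.5, 3 members in place of 5 were lower in maxillary ameloblast-like cells, and keeping them also left 0 lower in mandibular odontoblast-like cells. Limits on detected genes, and Leiden resolution 2, each put 1 member lower in maxillary odontoblast-like cells in place of 0. For members lower in maxillary E15.5 epithelium, a minimum of 2000 UMIs gave 2 and a minimum of 50 UMIs over the pair gave 0. Dropping also the barcodes found only in the P1 maxillary library, an alternative chosen after seeing the data, and keeping doublets changed none of these counts by over 1.5 times. With odontoblast-like cells of the Dspp-led cluster alone, also chosen after seeing the data, 1 member in place of 0 was lower in the maxillary library and 18.4% of its cells had both genes. The causes were not tested. Except for the Dspp-led cells, the share of all genes past 2-fold was not computed under these alternatives. E15.5 mandibular epithelium (95 cells) limits what depth can show.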
